A study of Bos taurus with 20 samples.

Results

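The chemokines, the interleukins, and the receptors of both families were examined across the cell types of the bovine antral follicle. Their members were all genes of the array whose name begins with CCL, CXCL, CCR, CXCR, or IL directly followed by a digit, which gave 122 of the 22563 genes or transcripts measured (292 of 61325 probes). Gene expression was measured on 20 custom bovine Agilent arrays hybridized in 1 colour with labelled RNA, 4 for each of 5 groups. Oocytes and the cumulus cells (CC) around them, the granulosa cells (GC) of the follicle, and theca cells (TH) of its wall, all labelled as immature, were taken from antral follicles of 3 to 6 mm from slaughterhouse ovaries, and a further group of CC was detached from the oocyte after 4 h of in vitro maturation (CC after IVM). The labels give no breed, age, or treatment for the animals. TH were scraped from the follicle wall and were not purified further as far as the labels say, and no group was sorted. The labels do not tie an array to a number of animals, and p-values therefore measure the spread between these samples.

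Chemokines are small secreted proteins that direct the migration of leukocytes. CC and CXC ligands bind G protein-coupled receptors named CCR and CXCR. Interleukins act through receptors built from a chain that binds the ligand and a signalling chain that is often shared, such as IL6ST (gp130) for the IL6 family or IL2RG for the IL2 family. IL1RN, IL1R2, and IL18BP hold ligands of the IL1 family away from their signalling receptors. In the ovary these molecules are known for the recruitment of leukocytes around ovulation and for the inflammatory character of cumulus expansion.

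Each gene was read by probes of 60 bases that lie in its Ensembl transcript. The first 30 bases are given here for 1 probe of each gene on which the comparisons turn, in the orientation of the array files, with the locus of the transcript on UMD 3.1. CXCL14 (chr7:48661078-48669442) and CCL21 (chr8:77421389-77422532) had the largest differences of TH from other cell types. IL2RA (chr13:17540961-17586319) and IL18RAP (chr11:7196920-7221257) were high in the oocyte. IL22RA1 (chr2:129351698-129378160) was high in GC. CXCL6 (chr6:90645964-90648076), CXCR4 (chr2:61582125-61585838), and IL33 (chr8:38724603-38792047) rose in CC after IVM. IL6 is shown with 2 probes because the array gives this name to transcripts at separate loci, chr4:31578311-31582667 and chr8:23310186-23310956, whose probes did not behave alike.
CXCL14: gtcaggaaccattagcattgcatgcaggtt
CCL21: tttcctttgtaaatatgacttacacccaat
IL2RA: tatccaggttaaaaagagcttttctgttct
IL18RAP: aaaggcttaaaatcagttcctcccaactct
IL22RA1: gtttcctcatctgtataatggggatagtac
CXCL6: gcacagccttgctaaaatgtgcagacatat
CXCR4: gttttcagaagtggatcaatttccacacct
IL33: ctggtgcaacataaaagaggctgggaatta
IL6 on chromosome 4: aatggctatgtggcttgaatgtccttattg
IL6 on chromosome 8: tttttctttcctgacgagactaacagatta

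Gene expression values are on a log2 scale relative to the array's own 75th percentile of intensity and are medians over a gene's probes, so that 0 is the 75th percentile and 1 unit is a 2-fold difference. Levels are compared between groups for the same gene and never between genes. A gene was called detected in a group when the scanner software marked any of its probes as well above background on 3 or 4 arrays. Where no array of the dimmer group was above background, the fold difference is a lower bound against the dimmest signal that was above background there. Where only 1 or 2 arrays of the dimmer group were above background, the fitted difference is given, and its size rests partly on background values. Oocyte replicate 2 had fewer of the 292 probes above background (20.2%) than the other oocyte arrays (35.6% to 42.1%), and genes at background had higher values on it (CCL21, for example, at -6.25 there and at -8.93, -8.92, and -8.02 on the other arrays). In TH the share was 42.8% to 45.5%, in GC 27.7% to 32.5%, in CC 27.4% to 31.5%, and in CC after IVM 30.5% to 38.0%. Markers of the labelled cell types were in place. A summed level here is the log2 of the sum of the markers' unlogged values, so that the brightest marker weighs most. The summed level of 5 theca markers was 9.17 to 9.70 in TH and at most 6.84 elsewhere, and that of 6 oocyte markers was 7.96 to 8.37 in the oocyte and at most 1.59 elsewhere. That of 4 granulosa and cumulus markers was 6.79 to 8.82 in GC, 8.57 to 8.62 in CC, and at most 5.06 in TH and the oocyte.

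Of the 122 genes, 81 were detected in at least 1 group and 41 in none. TH had the most, with 64 detected genes, or 52.5% of the family, against 44 in GC, 47 in CC, 53 in the oocyte, and 48 in CC after IVM (36.1%, 38.5%, 43.4%, and 39.3%). Over all genes of the array these shares were close to each other, with 63.5% in TH, 61.3% in GC, 63.5% in CC, 66.8% in the oocyte, and 58.9% in CC after IVM. Of 18 CC ligands, 13 were detected in TH and 8 to 10 in each other group, and of 10 CXC ligands, 9 were detected in TH and 5 or 6 elsewhere. All 5 CXC receptors were detected in TH, and 2 of them (CXCR2 and CXCR4) in the oocyte. Among 36 interleukins, the oocyte had the most detected genes with 13, followed by TH with 12, CC with 8, and GC with 7. Among 38 interleukin receptor chains, the order was TH (19), oocyte (17), CC (16), and GC (14).

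**Figure D1:**
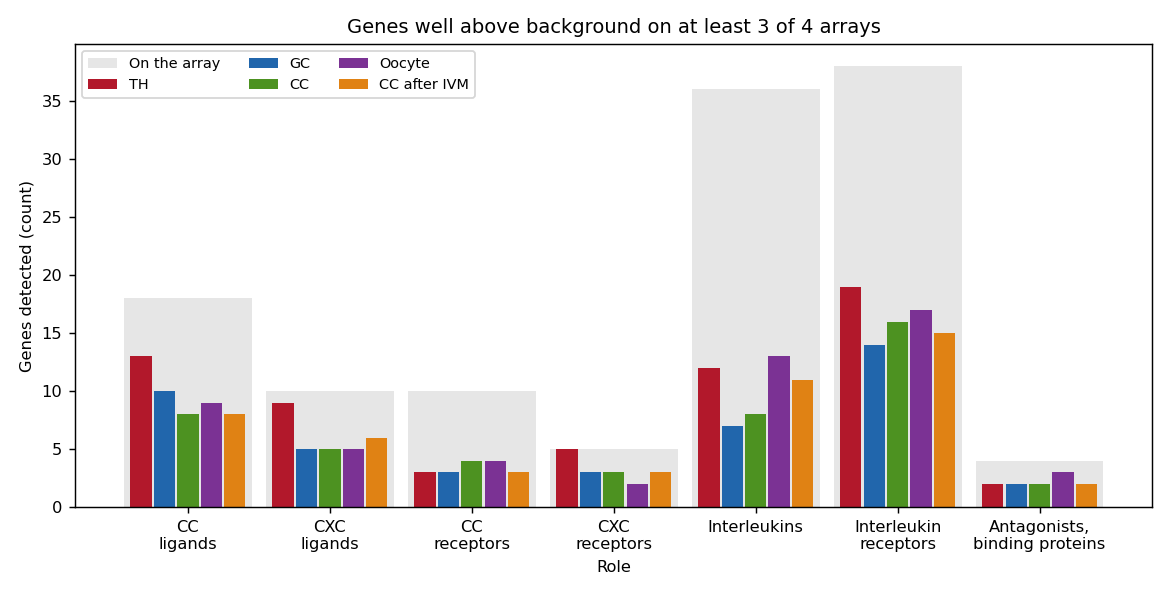
Number of genes (vertical axis) detected on at least 3 of 4 arrays in each group (coloured bars), by role, with the number on the array as the grey bar behind. TH has the tallest bar for CC ligands (13), CXC ligands (9), CXC receptors (5), and interleukin receptors (19), and the oocyte for interleukins (13).

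A core of 29 genes was detected in all 5 groups, among them the receptor chains IL6R, IL10RB, IL11RA, IL17RA, IL27RA, IL2RG, and IL4R, the ligands CXCL10, CXCL12, CCL2, and IL18, and the antagonists IL1RN and IL18BP. Among the 4 cell types, 7 genes were detected in TH alone (CCL24, CCL8, CXCL11, CXCL6, CXCR3, CXCR6, IL12A). In the oocyte alone 9 were detected (CCL17, CCR8, IL11, IL17F, IL18R1, IL18RAP, IL21, IL36RN, IL9). In CC alone 2 were (CCR3, IL1RAPL2), and in GC alone 0. The same counts over all genes are not given here. The 41 genes detected in no group included many that define T helper cells or their growth, such as IL2, IL4, IL5, IL13, IL7, IL7R, IL12B, IL23A, and IL23R, the lymphoid homing receptors CCR7, CCR6, and CCR9, and the IL33 receptor IL1RL1. The others were CCL11, CCL20, CCL22, CCR2, CCR4, CXCL13, IL10RA, IL12RB2, IL13RA2, IL15, IL15RA, IL17, IL17C, IL17RE, IL19, IL1RL2, IL20, IL20RB, IL22RA2, IL24, IL25, IL2RB, IL3, IL31RA, IL36B, IL36G, IL37, and IL5RA. Of the 41, 19 were above background on no array. Absence of a call on an array shows only that the signal of these probes was not well above background.

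**Figure D2:**
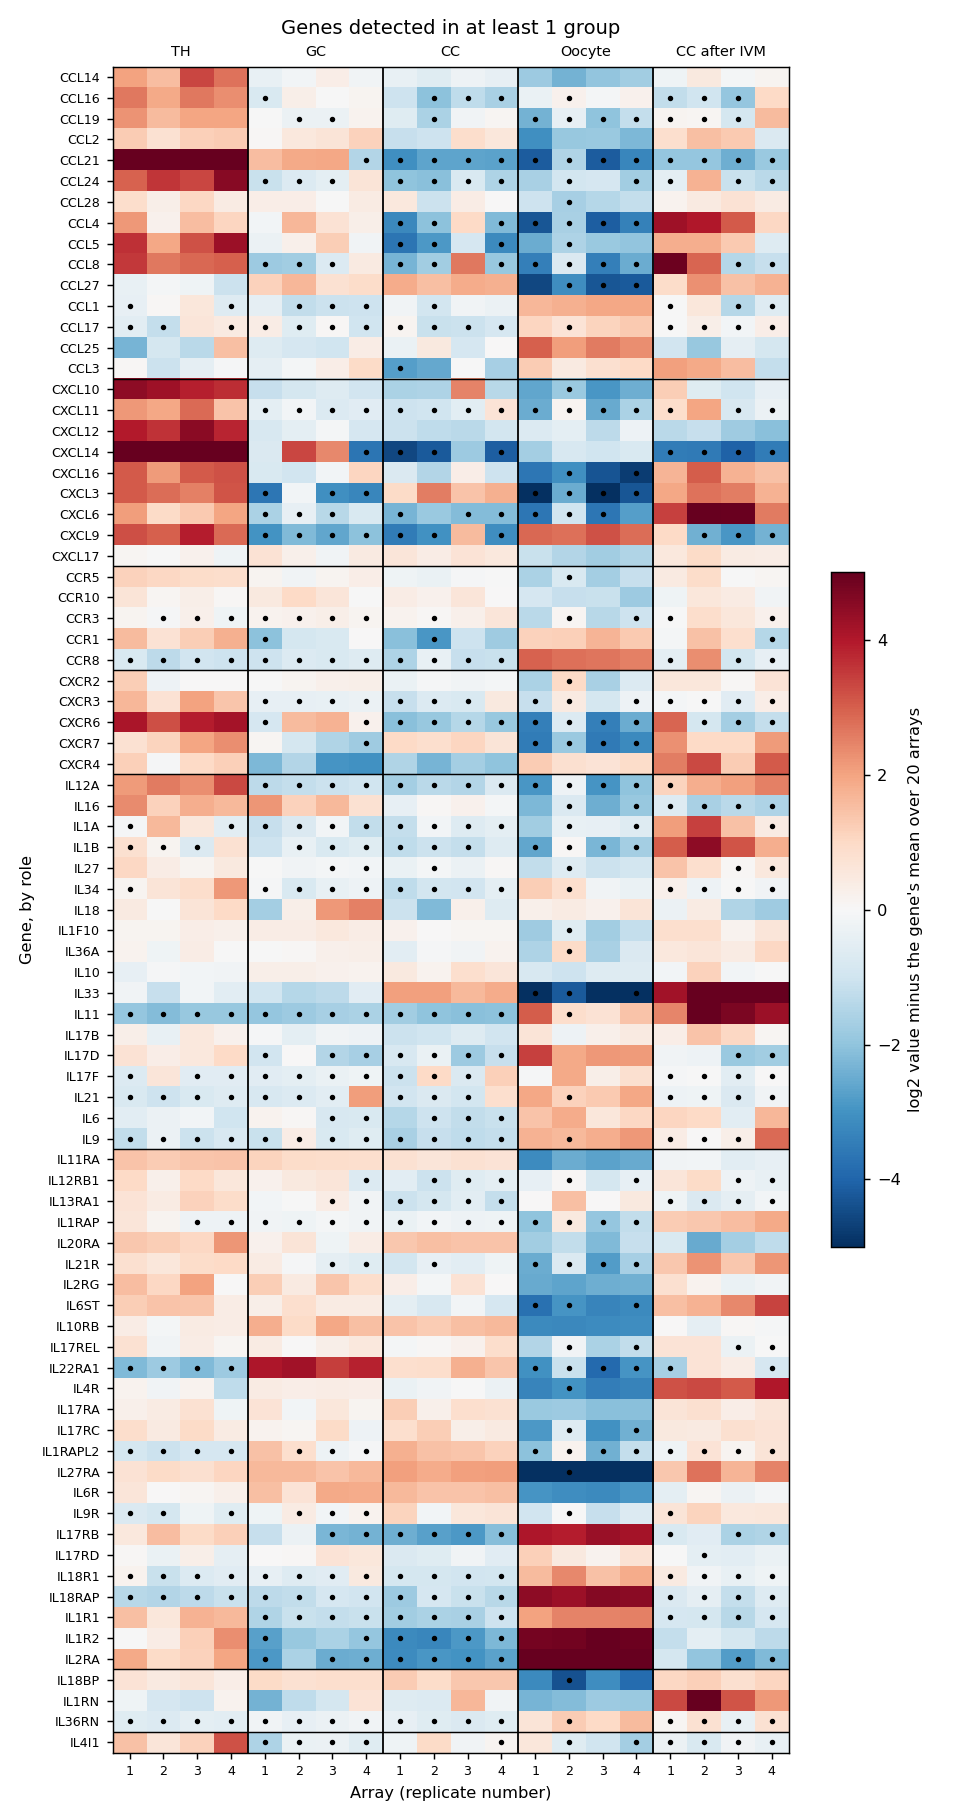
Gene expression value of each of the 81 detected genes (rows, grouped by role from CC ligands at the top to IL4I1 at the bottom) on the 20 arrays (columns, by group), as the difference in log2 units from the gene's mean over all arrays, with a black dot where no probe was well above background. Most CXC ligands, but not CXCL17, are red in TH, and a block of interleukin receptors is red in the oocyte. CXCL6, CXCR4, IL11, IL33, IL4R, and IL1RN are red in CC after IVM.

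Across the 4 cell types, limma's F-test called 82 of the 122 genes, against a background of 71.3% called over all 22563 genes. Of the 78 genes that were detected in at least 1 cell type, 74 were called (94.9%), where 88.7% of all detected genes were. By highest mean, these 78 genes fell to TH in 35 cases, to the oocyte in 22, to CC in 13, and to GC in 8. No such split over all detected genes is given here, so these counts only describe the family. Without oocyte replicate 2 the F-test called 114 of the 122 genes, and 88.1% of all genes.

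Most chemokine ligands were higher in TH. Relative to the other 3 cell types together, 52 of the 122 genes were higher in TH and 10 lower, where 22.0% of all genes were called higher and 27.9% lower. The median difference over the 122 genes was 0.44, against 0.0015 over all genes. By role the count of genes higher in TH was 10 of 18 CC ligands, 8 of 10 CXC ligands, 4 of 5 CXC receptors, 3 of 10 CC receptors, 10 of 36 interleukins, and 15 of 38 interleukin receptors. The median difference was 4.12 for the CXC ligands and 1.39 for the CC ligands. Of the 52 genes higher in TH, 48 were detected in at least 1 cell type. Within slide 1 alone 32 genes were higher in TH (14.5% of all genes), and within slide 2 alone 47 (18.2% of all genes).

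CXCL14, a chemokine of epithelia and stroma that attracts monocytes and dendritic cells, had the largest difference between any pair of cell types. Its values were 5.03, 5.02, 4.48, and 4.82 on the TH arrays, -3.93, 0.13, -0.83, and -6.85 on the GC arrays, -7.77, -7.41, -5.02, and -7.35 on the CC arrays, and -4.93, -4.01, -4.19, and -3.98 on the oocyte arrays. TH lay above every other array, the 4 GC arrays spread over 7 units, and 1 CC array was above background. The difference between TH and CC was 11.72 (standard error 1.11, limma, adjusted p = 7.33e-07), and all 4 probes gave a difference of TH from the mean of the others between 9.17 and 9.55.

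CCL21, the ligand of CCR7 that guides lymphocytes and dendritic cells, had values of 2.58, 2.23, 2.52, and 1.96 in TH and -3.21, -2.84, -2.80, and -6.21 in GC. No CC or oocyte array was above background for it. TH was at least 213-fold above CC and at least 299-fold above the oocyte (limma, adjusted p = 1.56e-09 for the latter, measured means 2.32 in TH, -7.50 in CC, and -8.03 in the oocyte). Its receptor CCR7 was detected in no group. In the same stretch of chromosome 8 (chr8:77361667-77422532) lie IL11RA, CCL27, and CCL19, of which CCL27, a skin chemokine, was instead highest in CC (mean -1.41), followed by GC (-2.05), TH (-3.60), and the oocyte (-7.20, above background on 1 array).

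CXCL12, the ligand of CXCR4 that retains progenitor cells and leukocytes in stroma, was at 2.13, 1.81, 2.67, and 1.97 in TH. In GC it was at -2.63, -2.30, -1.90, and -2.66, in CC at -2.88, -3.08, -3.15, and -2.75, and in the oocyte at -2.52, -2.33, -3.12, and -2.06. It was above background on every array. Every GC array lay above every CC array, and the oocyte overlapped both. TH did not overlap the other 3 cell types. TH was higher than their mean by 4.76 (standard error 0.20, limma, adjusted p = 1.79e-10).

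The interferon-inducible ligands of CXCR3, which lie close together on chromosome 6 (CXCL9, CXCL10, and CXCL11, chr6:92600177-92646326), were all high in TH. CXCL10 was at 0.16, -0.06, -0.43, and -0.62 in TH, between -5.47 and -4.95 in GC, and between -7.21 and -6.15 in the oocyte. In CC it was at -5.90, -5.83, and -5.69 on 3 arrays and at -1.84 on replicate 3. CXCL9 was at -1.10, -1.36, -0.42, and -1.49 in TH and at -1.45, -1.58, -1.13, and -1.56 in the oocyte, so that these cell types overlapped, while no GC array and 1 CC array (replicate 3, -2.75) was above background. CXCL11 had a mean of -4.20 ± 0.59 (SD, n = 4) in TH and was above background on no array of the other cell types. Their receptor CXCR3 was detected in TH alone (mean -5.29).

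Among the other ligands, CXCL16, which is made as a membrane protein and binds CXCR6, had a mean of 0.51 ± 0.49 (SD, n = 4 here and below) in TH, followed by GC at -2.54 ± 0.93, CC at -3.06 ± 0.77, and the oocyte at -6.28 ± 0.74. CXCR6 followed with -1.74 ± 0.43 in TH, and no CC or oocyte array was above background for it, so that TH was at least 12.7-fold above CC. CCL5, which attracts T cells and monocytes, was at -0.63, -2.34, -1.11, and -0.0047 in TH, between -4.58 and -3.08 in GC, and above background on 1 CC array. CCL24, an eosinophil attractant, was at least 12.4-fold higher in TH than in CC, and CCL8, which attracts monocytes, at least 10.6-fold higher in TH than in the oocyte. Both were called higher in TH than in the mean of the others (limma, adjusted p = 2.37e-08 for CCL24 and 0.000133 for CCL8). The monocyte attractant CCL2 had its highest mean in TH (-0.02), followed by GC (-0.57), CC (-1.34), and the oocyte (-3.43), but its 2 probes differed. The difference of TH from the mean of the others was 3.68 in one of them and -0.18 in the other.

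CXCL3, a ligand of CXCR2 that attracts neutrophils, was shared by TH and CC. It was at -0.65, -0.91, -1.21, and -0.59 in TH and at -2.74, -1.16, -2.29, and -1.93 in CC. In GC it was above background on replicate 2 alone (-3.83), and on no oocyte array. IL12A, a subunit of IL12 and IL35, was detected in TH alone, with values of -3.82, -3.36, -3.61, and -2.65, at least 3.18-fold above GC, 4.14-fold above CC, and 5.82-fold above the oocyte. CXCR7, a receptor that takes up CXCL12, was at -2.83 ± 0.73 in TH and -3.48 ± 0.20 in CC, lower in GC (-5.39 ± 0.85), and above background on no oocyte array.

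**Figure D3:**
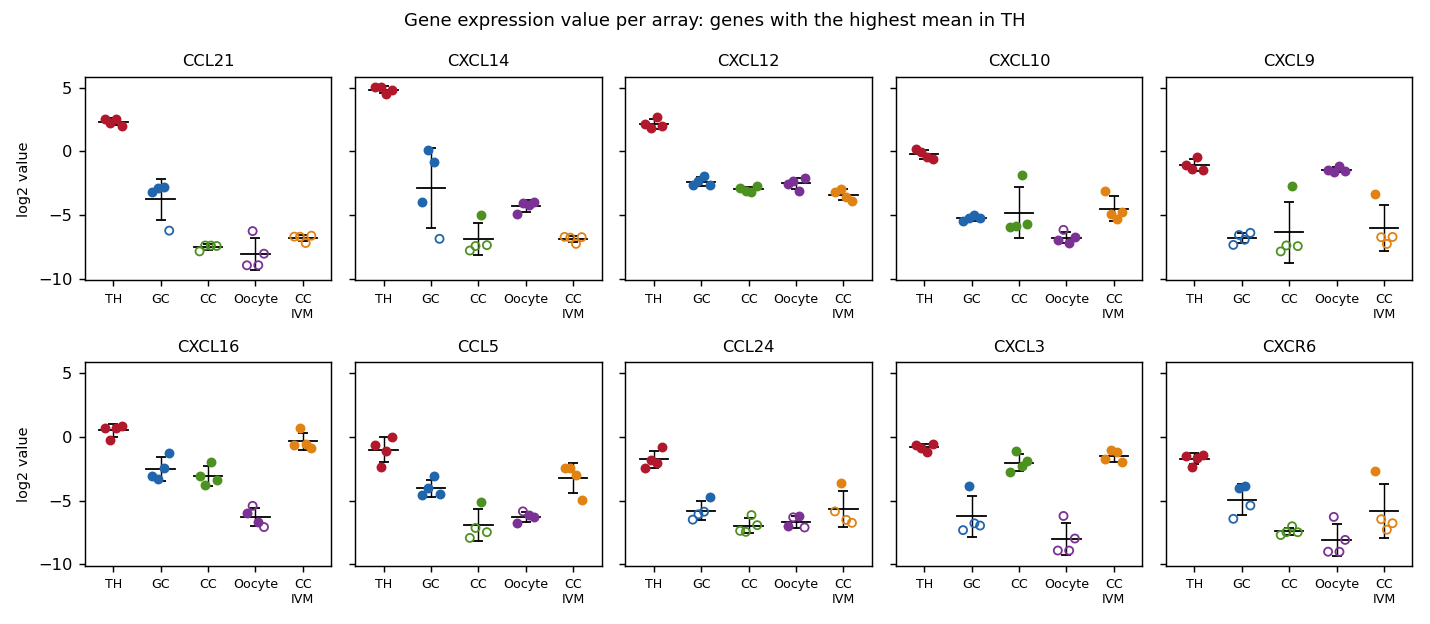
Gene expression value (log2, vertical axis) on each array for 10 genes with their highest mean in TH, by group. Filled points are above background, open points are not, and the bars give the mean ± SD of the 4 arrays. All 4 TH arrays lie above the arrays of GC in each gene, CXCL9 has the oocyte at the level of TH, and CXCL3 has CC near TH.

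Markers of leukocytes and vessels were also present in TH. Of 15 leukocyte markers on the array, 12 were detected in TH, 8 in CC, and 10 each in GC and the oocyte. Their summed level was 2.73 to 3.42 in TH, 0.53 to 1.71 in GC, and -0.31 to 1.04 in CC. In the oocyte it was 3.71 to 3.97, where CSF1R alone was at 3.70. PTPRC (CD45), the marker shared by all leukocytes, was above background on the 4 TH arrays (mean -4.07) and on no array of another group, and MS4A1 and ITGAM were above background on no TH array. Of 5 endothelial markers, 4 were detected in TH, with a summed level of 0.91 to 2.13 against -2.71 to -1.44 in GC and -3.00 to -2.49 in CC (1.54 to 2.15 in the oocyte), and the summed level of 3 red cell markers overlapped between TH (3.55 to 4.56) and GC (3.85 to 4.86). The part of these cells in the TH values was not tested, and fewer cells of a type and less RNA per cell cannot be told apart in such samples.

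The oocyte had more of these genes lower than higher. Relative to the 3 somatic cell types together, 23 of the 122 genes were higher in the oocyte and 60 lower, where 32.9% of all genes were called higher and 38.3% lower. The median difference over all genes was -0.52 and over all detected genes -0.03, and that over the 122 genes was -0.84. Of the 60 lower genes, 47 were detected in at least 1 cell type, and with quantile normalization, which brought the median over all genes to -0.01, 50 genes were lower and 29 higher (33.1% and 35.2% of all genes). With normexp background correction 107 were lower and 9 higher (67.1% and 24% of all genes), and with the deposited values 96 and 17 (56.1% and 34.0% of all genes). The 23 higher genes were 8 of the 38 interleukin receptors, of which 23 were lower, together with 6 interleukins, 4 CC ligands, 2 CC receptors, and 1 each of the CXC ligands, the CXC receptors, and the antagonists.

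IL2RA (CD25), the chain that gives the IL2 receptor its high affinity, was at 0.94, 1.33, 1.30, and 1.18 in the oocyte. In TH it was at -2.65, -3.61, -3.41, and -2.60, and it was above background on 1 GC array and on no CC array. The oocyte was at least 97.1-fold above CC and was called higher than the somatic mean (limma, adjusted p = 2.45e-13 for the latter). The partner chains did not share this pattern. IL2RB was detected in no group, and IL2RG had its lowest mean in the oocyte (-2.27 ± 0.11), with TH at 1.39, GC at 1.23, and CC at 0.48.

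Next to each other on chromosome 11 lie 6 receptors of the IL1 family (chr11:6721485-7221257), in the order IL1R2, IL1R1, IL1RL2, IL1RL1, IL18R1, and IL18RAP. The outer pair on each side, which bind IL1 or IL18, were all higher in the oocyte than in the somatic mean, and IL1RL2 and IL1RL1 were above background on no array. IL1R2, the decoy receptor of IL1, was at 0.63, 0.68, 0.94, and 0.76 in the oocyte, at -4.17, -3.78, -2.94, and -1.81 in TH, and above background on 2 GC arrays and on no CC array. It was at least 71.7-fold higher in the oocyte than in CC and was called higher than in the somatic mean (limma, adjusted p = 1.12e-10 for the latter). IL18RAP, the accessory chain of the IL18 receptor, was at -1.32, -1.54, -1.23, and -1.29 in the oocyte and above background on no other array of the cell types or of CC after IVM, which put the oocyte at least 14.9-fold above the somatic mean. IL18R1, which binds IL18, was at -4.90, -4.07, -5.00, and -4.63 in the oocyte and on no other array above background, at least 1.30-fold above GC. IL1R1, the signalling receptor of IL1, was at -3.86, -3.42, -3.42, and -3.39 in the oocyte and at -4.40, -5.33, -4.17, and -4.27 in TH, with GC and CC not above background. Its 4 probes fell in pairs, at -3.10 and -3.12 against -6.68 and -6.22 in TH, so that its median lies between them.

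IL17RB, which binds IL17B and IL25, was at -0.59, -0.70, -0.29, and -0.47 in the oocyte and at -4.09, -3.09, -3.66, and -3.44 in TH. It was above background on 2 GC arrays and no CC array, and the oocyte was at least 29.8-fold above CC. CCR8, a receptor of CCL1 known from regulatory T cells, was at -3.41, -3.62, -3.70, and -3.84 in the oocyte and above background on no array of TH, GC, or CC. CCL1 itself had its highest mean in the oocyte too (-3.16, with TH at -5.10, GC at -5.93, and CC at -5.38). CCL25, the ligand of CCR9, was at 0.33, -0.56, -0.08, and -0.32 in the oocyte, above all 12 somatic arrays, of which the nearest was TH replicate 4 at -1.15. It was higher than the somatic mean by 2.98 (standard error 0.50, limma, adjusted p = 5.58e-05).

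CXCR4, the receptor of CXCL12, was shared by the oocyte (2.19, 1.69, 1.61, and 1.84) and TH (2.08, 0.86, 1.92, and 2.11), whose values overlapped. GC (-1.35, -0.56, -2.05, and -2.12) and CC (-0.60, -1.40, -0.81, and -1.11) lay below both and overlapped each other. Oocyte and GC differed by 3.35 (standard error 0.35, limma, adjusted p = 3.77e-07). IL11, a cytokine of the IL6 family read by a single probe, was at -2.30, -4.44, -4.60, and -3.91 in the oocyte, above background on 3 of these arrays, and on no array of TH, GC, or CC.

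**Figure D4:**
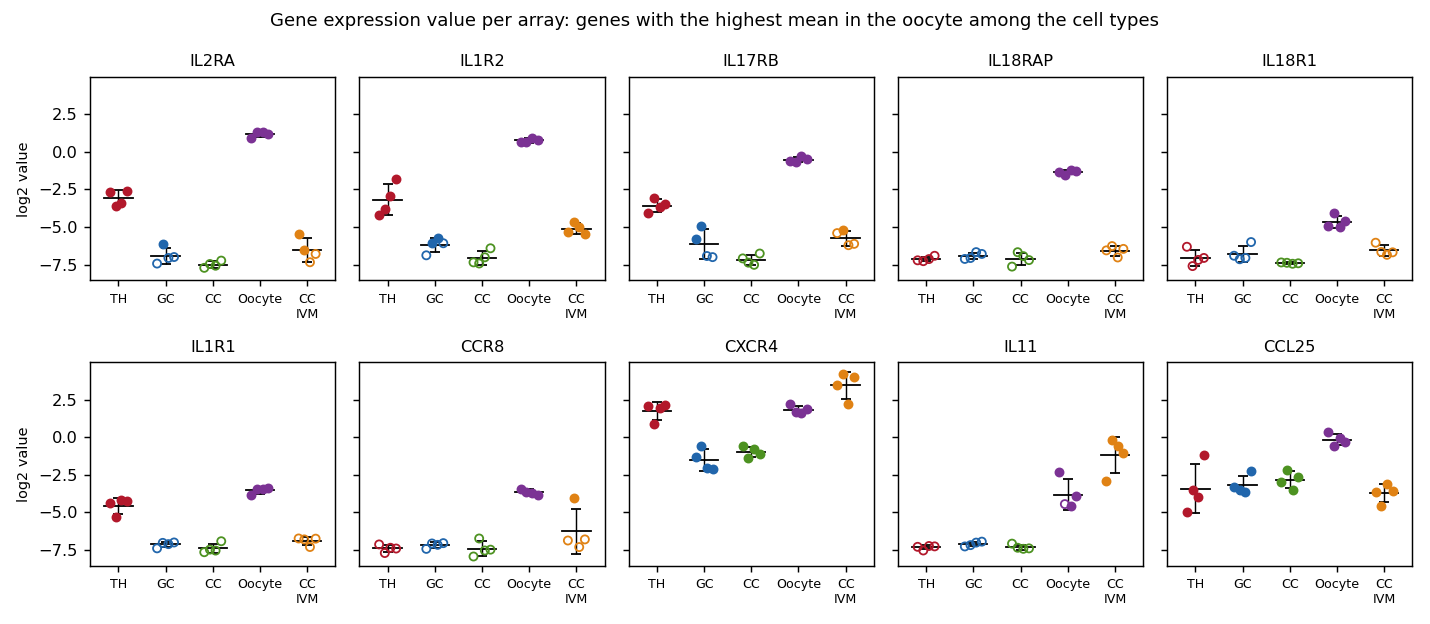
Gene expression value (log2, vertical axis) on each array for 10 genes whose highest mean among the 4 cell types is in the oocyte, by group. Filled points are above background, open points are not, and the bars give the mean ± SD of the 4 arrays. IL2RA and IL1R2 lie above 0 in the oocyte and at or below -1.81 in TH, while CXCR4 is at one level in TH and the oocyte and rises above both in CC after IVM.

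Other receptor chains were low in the oocyte. IL27RA, the receptor chain of IL27, was at 1.12, 1.36, 1.23, and 1.48 in TH, 2.05, 2.05, 1.85, and 2.05 in GC, and 2.48, 2.28, 2.47, and 2.50 in CC, against -5.93, -6.20, -6.05, and -6.30 in the oocyte. With 8.03 (standard error 0.11, limma, adjusted p = 2.76e-16) it had the largest difference of the oocyte from the somatic mean among the 122 genes. IL10RB, a chain shared by the receptors of IL10, IL22, and IL26, was lower in the oocyte by 4.25, IL6R, the ligand-binding chain for IL6, by 4.10, IL11RA, that for IL11, by 3.71, IL6ST by 3.64, and IL20RA by 2.63 (limma, adjusted p from 4.86e-13 for IL11RA to 3.61e-08 for IL20RA). IL6ST was above background on 1 oocyte array. IL18BP, which neutralizes IL18, was lower in the oocyte by 4.48 (standard error 0.19), although its ligand IL18 did not differ between cell types by the F-test (adjusted p = 0.161, means TH -1.58, GC -1.30, CC -3.02, oocyte -1.73). This rested on GC replicate 1, without which the F-test called IL18 (adjusted p = 0.00543), and it was also called with normexp (0.0386) and within slide 2 (0.00346). IL18 spread widely in GC, with -3.81, -1.83, 0.04, and 0.41.

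IL33, an alarmin stored in the nucleus, separated CC from GC. It was at 0.08, 0.06, -0.35, and -0.14 in CC, at -2.97, -3.43, -3.29, and -2.55 in GC, and at -2.18, -3.12, -2.13, and -2.50 in TH, and it was above background on 1 oocyte array. CC was higher than GC by 2.97 (standard error 0.34, limma, adjusted p = 6.37e-05). Its receptor IL1RL1 was above background on no array.

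Between GC and CC few of these genes differed, with 10 higher in GC and 4 higher in CC, where 4.6% of all genes were called higher in GC and 5.27% higher in CC. The 10 became 5 without GC replicate 3 and 6 without CC replicate 1, 2, or 4 (2.94%, 3.05%, 2.74%, and 3.36% of all genes). Of the 10, 4 were CC ligands and 3 interleukin receptors. Within slide 1 alone the comparison called 0 genes in either direction (15 higher in GC and 4 higher in CC at an unadjusted p under 0.05), and within slide 2 alone 3 in each (limma), with 2 arrays per cell type. Over all genes these shares were 0.448% and 0.381% on slide 1 and 0.802% and 1.19% on slide 2. IL22RA1, the IL22 receptor chain of epithelia, was at -1.08, -0.91, -1.65, and -1.27 in GC and at -4.29, -4.23, -3.33, and -3.73 in CC, and above background on no TH or oocyte array. GC was higher than CC by 2.67 (standard error 0.43, limma, adjusted p = 0.000949) and at least 16.7-fold above TH. CCL5 was higher in GC than in CC by 2.88 (adjusted p = 0.00431) and CCL21 by at least 3.13-fold (adjusted p = 0.00229). Both had their highest mean in TH. Of the 5 theca markers, COL1A2 and ACTA2 were also called higher in GC than in CC (limma, adjusted p = 0.000669 and 0.00522). INSL3, COL1A1, and CYP17A1 were not (limma, adjusted p = 0.342, 0.659, and 0.364). The summed level of the 5 was 4.90 to 6.84 in GC and 4.66 to 5.03 in CC, with 4 of 5 detected in each. CYP17A1 was above background on 1 GC array and on no CC array, and COL1A2 was at 0.36 to 3.59 in GC and at -6.00 to -1.29 in CC. The part of theca cells in these differences was not tested. In the other direction, CC was above GC in CXCL3 by 4.19 (adjusted p = 0.00132), CXCR7 by 1.91 (adjusted p = 0.0136), and IL20RA by 1.18 (adjusted p = 0.0134).

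IL6 had to be read by locus. The probe of the transcript on chromosome 4 shown above was at -3.93, -4.17, -3.44, and -2.71 in TH, at -3.75, -3.43, -4.95, and -7.09 in GC, and above background on no CC array and 1 oocyte array. After IVM it was at -1.13, -0.96, -2.19, and -1.39. The other probe of that transcript was above background on at most 2 arrays of any group. Both probes of the transcript on chromosome 8 were above background on the 4 oocyte arrays (means of -2.05 and -2.97) and on no array of any other group. The gene's median over these 4 probes, called higher in the oocyte by 1.89 (adjusted p = 3.45e-06) and higher after IVM by 2.00 (adjusted p = 0.00443), mixes both patterns.

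After 4 h of IVM a set of inflammatory genes was far higher in CC. Of the 122 genes, 53 were called higher after IVM and 7 lower, where 30.2% of all genes were called higher and 15.5% lower. All 4 arrays of CC after IVM were on a slide of their own, so slide and IVM cannot be told apart. The median difference over all 22563 genes was 0.37, and over the 14770 genes detected in either group it was 0.01, and 30 of the 53 genes were not detected in either group. Of the 57 genes of the family detected in CC or in CC after IVM, 23 were called higher and 7 lower, where 21.8% and 23.4% of all genes detected there were. The count moved with the processing, and the share over all genes moved with it. With quantile normalization 22 of the 122 genes were higher (12.4% of all genes) and with normexp 102 (65.3% of all genes). Without CC replicate 1, CC replicate 3, or CC after IVM replicate 4 the number was 31, 30, or 33 (16.4%, 16.9%, and 18.6% of all genes). By role, the 23 were 9 interleukins, 5 interleukin receptors, 3 CC ligands, 2 CXC ligands, 2 CXC receptors, 1 CC receptor, and 1 antagonist.

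CXCL6, a neutrophil attractant that binds CXCR1 and CXCR2, was at -7.45, -7.00, -7.30, and -7.29 in CC, above background on 1 array, and at -1.74, 1.22, -0.18, and -2.54 after IVM. It rose by 6.45 (standard error 0.68, limma, adjusted p = 0.000106), a size that rests on CC values at background on 3 of 4 arrays. The neutrophil attractant IL8 (CXCL8), which the array spells IL-8 and which is therefore outside the 122 genes, was above background on no CC array and at 1.33, 1.07, 0.32, and -1.19 after IVM, at least 55.4-fold higher (measured means -7.27 and 0.38, limma, adjusted p = 1.07e-05). IL-22 and GRO1 (CXCL1), also left out by their names, were above background on no CC array. After IVM IL-22 was above background on 3 arrays (measured means -7.23 and -4.02, limma, adjusted p = 0.000569). GRO1 was so on 4 (-7.05 and -3.28, adjusted p = 1.18e-05). BLR1, CCRL1, and CCRL2, outside the rule too, were not called (adjusted p = 0.562, 0.124, and 0.974). CXCL3, near CXCL6 on chromosome 6, was at -1.78, -1.01, -1.16, and -1.97 after IVM, against a mean of -2.03 before. It was not called (adjusted p = 0.228).

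IL11 was above background on no CC array and at -2.88, -0.17, -0.62, and -1.05 after IVM, at least 18.8-fold higher (measured means -7.30 and -1.18, limma, adjusted p = 2.46e-05). Of the receptor chains of this family, IL6ST, the signalling chain, was at -3.84, -4.16, -3.48, and -4.20 in CC and at -1.84, -1.62, -0.95, and 0.0028 after IVM, higher by 2.82 (standard error 0.39, adjusted p = 0.00048). The ligand-binding chains moved the other way. IL6R was at 0.65, 0.46, 0.47, and 0.52 in CC and at -1.46, -0.85, -1.25, and -1.08 after IVM, and fell by 1.68 (standard error 0.19, adjusted p = 0.000163). IL11RA was at 2.15, 1.99, 2.16, and 2.06 in CC and at 1.20, 1.25, 0.87, and 0.98 after IVM, and fell by 1.01 (standard error 0.18, adjusted p = 0.00198).

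The IL1 cluster of chromosome 11 rose at both ends. IL1B was at -7.47, -7.27, -7.38, and -6.84 in CC, above background on 1 array, and at -3.17, -1.71, -3.03, and -4.36 after IVM, higher by 4.17 (standard error 0.47, limma, adjusted p = 0.00015). IL1A was above background on no CC array and on 3 of 4 arrays after IVM, at least 2.92-fold higher (measured means -6.32 and -3.87, adjusted p = 0.00708). The antagonist IL1RN was at -3.18, -3.21, -0.88, and -2.72 in CC and at 0.78, 2.61, 0.62, and -0.39 after IVM, higher by 3.40 (standard error 0.67, adjusted p = 0.00402). Of the genes between them, IL36G and IL37 were above background on no array, and IL36A was above background in 1 of its 4 probes, which differed by 0.05 between the groups. Of the receptors, IL1R1 was above background on no array of CC before or after IVM, the decoy IL1R2 and the accessory chain IL1RAP were detected after IVM and not before, and IL4R, the receptor chain of IL4 and IL13, rose from -3.22, -3.07, -2.92, and -3.22 to 0.28, 0.38, 0.15, and 1.07, by 3.58 (standard error 0.23, adjusted p = 8.29e-06).

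CXCR4 rose from the values given above to 3.46, 4.19, 2.19, and 3.97, by 4.43 (standard error 0.41, limma, adjusted p = 5.04e-05), while its ligand CXCL12 was at -3.15, -2.96, -3.61, and -3.90 after IVM against a mean of -2.97 before (difference -0.44, adjusted p = 0.158). IL33, already highest in CC among the cell types, was at 2.23, 3.70, 3.15, and 3.02 after IVM, higher by 3.11 (standard error 0.30, adjusted p = 6.19e-05). IL12A was above background on no CC array and 3 arrays after IVM, at least 2.54-fold higher (adjusted p = 8.71e-05).

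The CC ligands CCL4 and CCL5, attractants of T cells and monocytes, also rose. CCL4 was at -7.82, -6.64, -3.60, and -6.80 in CC and at -0.36, -0.59, -1.56, and -3.57 after IVM, higher by 4.70 (standard error 0.93, limma, adjusted p = 0.004). CCL5 was at -7.93, -7.15, -5.14, and -7.48 in CC and at -2.47, -2.48, -2.99, and -4.93 after IVM, higher by 3.70 (standard error 0.69, adjusted p = 0.00276), and by 5.11 and 2.30 over its 2 probes. CCL2 was not called (adjusted p = 0.225), and its probes differed, with -0.55 and 2.40.

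CC replicate 3 stood apart from the other CC arrays in these ligands. It was the highest of the 4 in 21 of the 47 genes detected in CC, and the highest in CXCL9, CXCL10, CXCL14, CCL4, CCL5, and IL1RN. The same array was highest in several leukocyte markers. CD53 was at -1.97 on it and at -6.16, -5.97, and -5.51 on the others, and CD14 at -2.08 against -4.44, -4.96, and -4.12. After IVM CD53 was at -0.37, -1.26, -2.14, and -4.66 and CD14 at -2.02, -0.13, -0.46, and -3.68, and the summed level of the 15 leukocyte markers was 0.70 to 1.94, against -0.31 to 1.04 before. PTPRC and MS4A1 were above background on no array of either group, and 9 of the 15 markers were detected after IVM and 8 before. On the array with the lowest CD53, CD14, and summed level after IVM, replicate 4, CCL4 and CCL5 were also lowest. Other markers had another order. CD68 was at -0.52 on replicate 4 and at -1.32, -0.08, and -1.03 on the others, and LYZ was lowest on replicate 3 (-4.73). In CC, CD68 was highest on replicate 4 (-2.34) and at -2.79 on replicate 3. The part of leukocytes in these rises was not tested. Without CC replicate 3, CCL4 was higher after IVM by 5.57 and CCL5 by 4.30 (limma, adjusted p = 0.000732 and 0.000864).

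Of the 7 genes called lower after IVM, 6 were interleukin receptors, and with normexp the differences of IL22RA1 (0.11), IL1RAPL2 (0.41), and IL16 (0.15) had the opposite sign. IL20RA, a receptor chain for IL19, IL20, and IL24, fell most, from 1.52, 1.68, 1.59, and 1.59 to -0.61, -2.36, -1.56, and -1.12, by 3.01 (standard error 0.33, limma, adjusted p = 0.00014). IL10RB, at 2.36 to 2.70 before and at 0.62 to 1.13 after, fell by 1.56 (standard error 0.19, adjusted p = 0.000262). IL22RA1, which pairs with IL10RB, was at -6.79, -4.44, -4.76, and -5.95 after IVM, above background on 2 arrays, and its difference of -1.59 was called (adjusted p = 0.0266), but not without CC replicate 3, CC replicate 4, or CC after IVM replicate 4, nor with quantile normalization or the brightest probe. IL1RAPL2, an IL1 receptor relative of neurons, was called (adjusted p = 0.00724) but was above background on no array after IVM, and its mean in CC (-4.97) was no higher than the dimmest signal above background there (mean -4.75), so that no fold is given. It was not called in the deposited table, with the brightest probe, or with all 20 arrays in 1 fit. IL16, a ligand of CD4, was called too (adjusted p = 0.00508), likewise with no fold. One of its probes was at a mean of -3.03 before and above background on no array after IVM, and the other was above background on no array of either group.

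**Figure D5:**
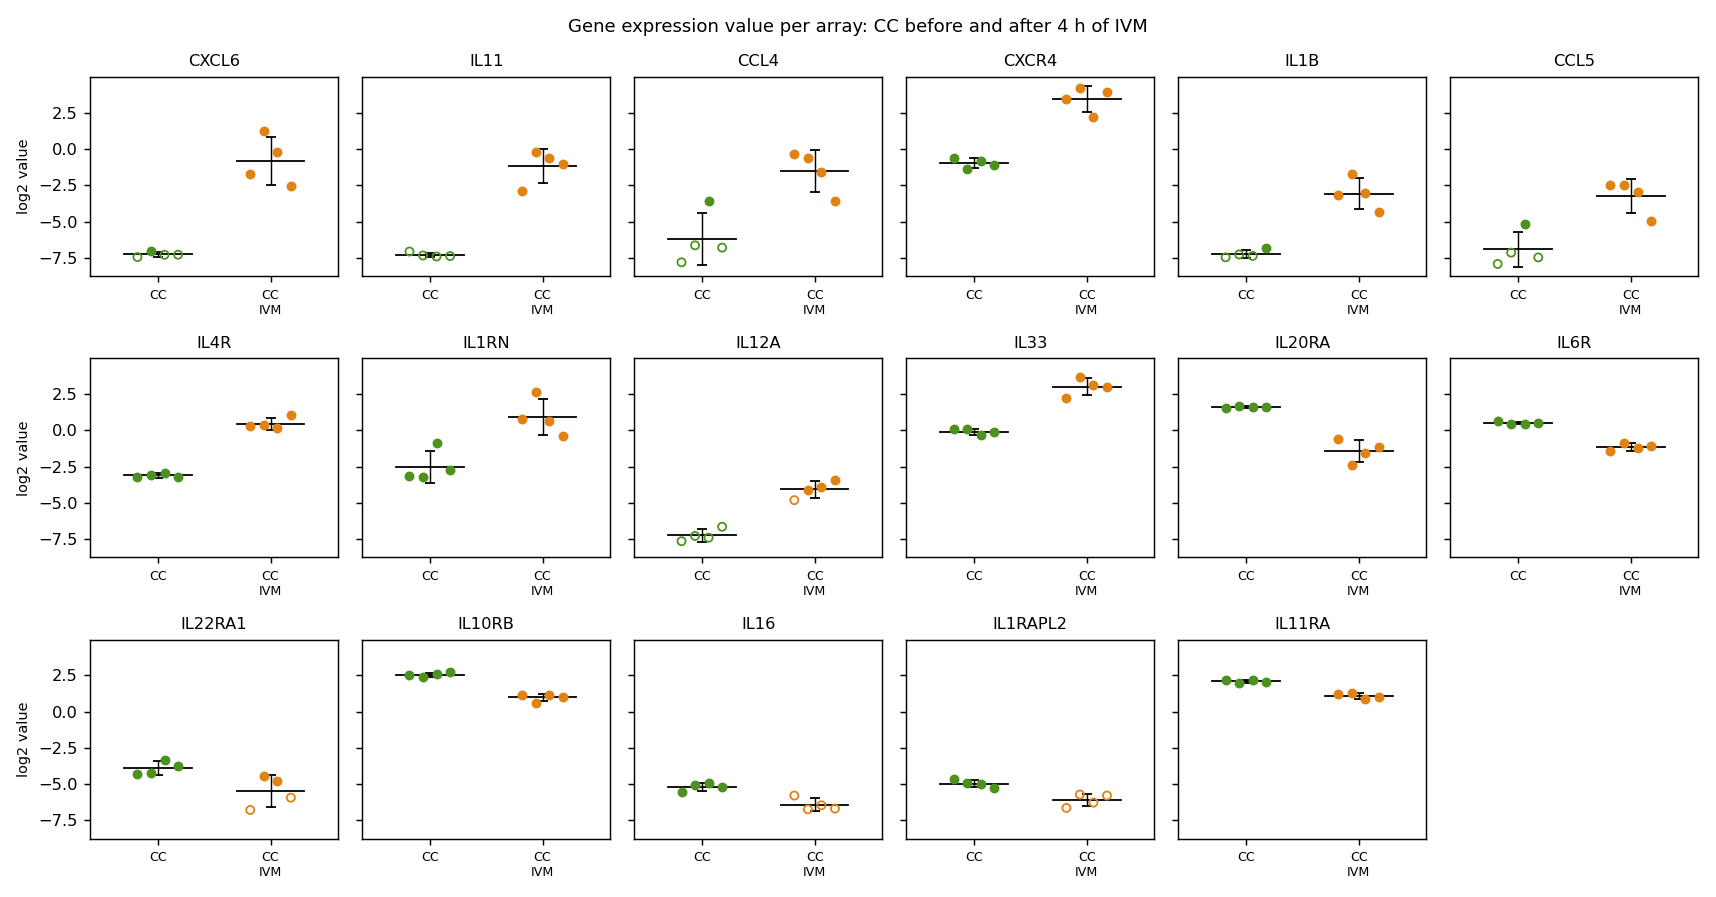
Gene expression value (log2, vertical axis) on each array of CC before (left) and after (right) 4 h of IVM, for the 10 genes with the largest rise (CXCL6 to IL33) and the 7 called lower (IL20RA to IL11RA). Filled points are above background, open points are not, and the bars give the mean ± SD of the 4 arrays. The 17 genes were chosen among those without overlap of the groups, so the absence of overlap here is no result. CC replicate 3 (the third point) is the highest CC array in CCL4, CCL5, and IL1RN.

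Outside the family, 51 further genes of the same pathways were on the array, of which 36 were detected. In TH 14 of the 51 were higher than in the mean of the others and 9 lower, in the oocyte 14 were higher than in the somatic mean and 22 lower, and after IVM 18 were higher and 7 lower. As shares these were 27.5% and 17.6% in TH (22.0% and 27.9% over all genes), 27.5% and 43.1% in the oocyte (32.9% and 38.3%), and 35.3% and 13.7% after IVM (30.2% and 15.5%). The fractalkine receptor CX3CR1 was higher in TH by 4.25 and EBI3, the partner of IL12A in IL35, by 3.16 (limma, adjusted p = 1e-07 and 1.47e-08). Of the genes downstream of the receptors, STAT3, which acts below gp130, was higher in the oocyte by 4.64, TRAF6, the adaptor of IL1 and IL18 receptors, by 2.81, and STAT5B, which acts below the IL2 receptor, by 2.43, while the kinase TYK2 was lower there by 3.97. IRAK4 and IRAK1 were also lower in the oocyte (differences of -1.66 and -1.36), and MYD88 and IRAK2 were higher (0.91 and 0.64). After IVM the feedback inhibitors SOCS2 and CISH were higher by 3.76 and 1.65, OSMR by 1.74, and the NF-kB subunits NFKB1 and RELB by 1.91 and 2.05 (adjusted p between 3.02e-06 for SOCS2 and 0.0112 for CISH). JAK3 fell by 2.75, MYD88 by 2.09, and TYK2 by 1.94 (adjusted p between 0.000502 and 0.00563). Other ligands of the IL6 family, LIF and OSM, were detected in no group.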

How the data were processed

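For each array the authors deposited the output of Agilent Feature Extraction 10.7.3.1, with probes placed on UMD 3.1 and, per spot, the processed intensity (background removed and spatial trend corrected, each array on its own scale) and marks for signal well above background and for outliers. The authors also deposited a table of log2 values, each column of which was log2 of the median spot signal minus the array's median, within 5.0e-09, and served as an alternative. No source used here gives the software behind that table.

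After removal of controls and outliers, each array's log2 intensities were set relative to their own 75th percentile, and a gene was given the median of its spots. limma 3.58.1 (R 4.3.3, lmFit and eBayes) was fitted to all 22563 genes, on 16 arrays for the cell types and on 8 for CC after IVM against CC, with Benjamini-Hochberg adjustment over all genes and a threshold of 0.05. Every p in the text not otherwise named is such a limma p. A difference of means is given with its standard error.

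The members, gene lists, and tests were chosen with earlier results of these data known. Genes named were the 24 called members with the largest difference between a pair of cell types, up to 10 rises and 10 falls after IVM without overlap of the groups, and IL1A, IL1B, IL1RN, IL1R1, IL6, IL6R, IL6ST, IL8, CXCL12, CXCR4, CCL2, IL18, and IL33. Other members were named after their values were seen. Files were read and tables built with pandas 2.3.3 (Python 3.11.15), and matplotlib 3.10.9 drew the plots.

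The alternatives were quantile normalization, the percentile taken over the probes that every array detected, normexp (offset 50), the deposited log2 values, the mean or the brightest probe in place of the median, detected genes alone, a single fit of the 20 arrays, the methods' analysis of variance, a block for the replicate number or for the slide, each slide alone, and leaving out each array, and slide as a random block was added after seeing the data. On simulated data with 200 genes of 22563 changed by a log2 amount of 2, the F-test recovered 73.5%, the contrast of TH 88.5%, and the comparison after IVM 73%, and at a change of 1 they recovered 31%, 38.5%, and 0%. In the data far more genes were called (71.3% by the F-test, and 30.2% higher and 15.5% lower after IVM). The simulated rates hold for the small share of changed genes and do not carry over to the data. The number of arrays limits the precision. A search for motifs in promoters was not made.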

Additional observations from a re-analysis of the deposited data

Results flagged for a closer look

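A single array lay far from the other 3 of its group in 9 of the 133 combinations of a named gene and a group in which it was detected (6.77%), by the gap to the nearest array over the range of the 4 (Dixon's criterion at the 95% level, which chance passes in about 1 of 20 groups). In TH, replicate 2 was the low array in 4 genes. CXCL16 was at -0.22 with the others at 0.70 to 0.83, CXCR4 at 0.86 with the others at 1.92 to 2.11, IL10RB at 1.00 with the others at 1.44 to 1.50, and IL11RA at 2.65 with the others at 2.78 to 2.80. That array was the lowest of the 4 in 33 of the 64 genes detected in TH. In GC, CCL21 was at -6.21 on replicate 4 with the others at -3.21 to -2.80, and IL27RA at 1.85 on replicate 3 with the others at 2.05. In CC, CXCL10 was at -1.84 on replicate 3 with the others at -5.90 to -5.69, and IL27RA at 2.28 on replicate 2 with the others at 2.47 to 2.50. In the oocyte, IL1R1 was at -3.86 on replicate 1 with the others at -3.42 to -3.39.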

How the results depend on the processing

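Normexp background correction, which starts from the mean signal, left 4 of the 122 genes lower in TH (21.4% of all genes), 9 higher and 107 lower in the oocyte (24% and 67.1%), and 6 higher in GC than in CC (3.51%), and it called 102 genes higher and 4 lower after IVM (65.3% and 13.1%). Under it the median difference over all genes was -1.30 in the oocyte and 0.55 after IVM. Under it the differences of IL16 (0.15), IL1RAPL2 (0.41), and IL22RA1 (0.11) after IVM, of IL1A between TH and GC (-0.15), and of IL6 between CC and oocyte (0.29) changed sign. The deposited table gave 96 genes lower in the oocyte and 7 higher in CC than in GC (56.1% and 7.61% of all genes). The percentile over probes detected on all arrays gave 6 lower in TH (22.1%). After IVM, 22 genes were higher with quantile normalization (12.4% of all genes) and 33 with all 20 arrays in 1 fit (20.2%). With slide as a random block 76 were higher (45.8%). A filter on dim genes left 57 members to test, of which 23 were higher (22.1% of all genes left). Within slide 1, 32 genes were higher and 5 lower in TH, 38 were lower in the oocyte, and limma called 0 between GC and CC in either direction at the adjusted threshold, with 15 higher in GC and 4 higher in CC at an unadjusted p under 0.05. Within slide 2, 5 were lower in TH (20.2% of all genes) and 3 higher in GC than in CC (0.802%). With the scanner's mark for positive and significant signal, 85 genes were detected in GC, 76 in CC, 84 in the oocyte, and 85 in CC after IVM, and on all 4 arrays 34 in the oocyte. Leaving out 1 array gave 6 to 11 genes lower in TH (6 without TH replicate 2, 25.9% of all genes). It gave 48 to 90 lower in the oocyte (48 without oocyte replicate 3, 32.5%, and 90 without oocyte replicate 2, 52.3%). Between GC and CC it gave 5 to 14 higher in GC (5 without GC replicate 3, 2.94%). After IVM 30 to 61 were higher (30 without CC replicate 3, 16.9%, and 61 without CC after IVM replicate 3, 33.7%). The cause of these changes was not tested. Deviations from the group means correlated above 0.1 in 4 of 4 same-numbered pairs of TH and GC (r from 0.117 to 0.341, against -0.246 to 0.125 for other numbers), in 3 of 4 of GC and CC, in 2 of 4 of TH and CC, and in 0 of 4 of each pair with the oocyte and of CC before and after IVM. With the replicate number as a block 81 genes were called by the F-test and 37 were higher after IVM (18.4% of all genes), no other count moved by more than 1 gene, and of the calls of named genes only the F-test of IL1A changed, to a call (adjusted p = 0.00967). Of the tests of named genes under all alternatives, 1362 kept direction and call, 17 became called, 15 lost the call, and 5 changed sign. Signal over background limits what can be seen, since 41 of the 122 genes were detected in no group.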
